A study of Mus musculus with 3 samples.

Results

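The 10 genes described here are Nfkbia, Nfkbiz, Nfkbid, Nfkbie, Tnfaip3, Zfp36, Nfkb1, Rel, Socs3 and Cd83, a set of NF-kB feedback genes, NF-kB subunits and partner genes. They were taken by symbol from the gene table of the series, which lists 27998 genes, and all 10 were found there. Their levels were followed in single cells sorted with a Cd11b antibody from the brains of adult mice, across cell classes named from marker genes and across 3 libraries. Cd11b, an integrin chain, is carried on the surface of microglia and most other myeloid cells.

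NF-kB is a family of transcription factors that IkB proteins hold inactive until a receptor for a cytokine or a microbial product is engaged. The freed factors switch on cytokine genes together with genes of their own inhibitors, and these inhibitors end the signal. SOCS proteins do the corresponding work on the JAK-STAT pathway downstream of cytokine receptors. In microglia and other brain macrophages these feedback genes are known as early responders to inflammation, injury and the handling of tissue.

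The mice were C57BL6J females aged 5 months, and the tissue was the brain with the cerebellum removed. The groups of the labels were naive mice (Ctrl, 1 animal), mice fed PLX5622 at 1200 mg/kg in the diet for 14 days (D0, 2 animals pooled), and mice put back on control diet for 2 days after the same treatment (D2, 1 animal). PLX5622 inhibits Csf1r, the receptor through which microglia receive survival signals. The tissue was digested with enzymes at 37 °C for 45 min before sorting, the libraries were made with 10x Genomics 3′ v2 reagents, and the protocol speaks of 4 samples, whereas the labels used here describe 3.

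Each group is 1 library, and the number that ends each barcode is tied to Ctrl, D0 or D2 by no label or file used here. The cells are therefore called libraries 1, 2 and 3, the groups were not compared, and no p-value is given. After filtering, 1261, 592 and 284 cells remained in libraries 1, 2 and 3, with a median of 3660, 6215 and 8143 unique molecular identifiers (UMIs) per cell and 0 barcodes shared. The labels call the cells microglia, whereas microglia-like cells numbered 1083, 64 and 2. The other classes were border-associated-macrophage-like, classical and non-classical monocyte-like, Cd209a dendritic-like, mature-dendritic-like, neutrophil-like and NK-like cells, and a cycling cluster, which is a state and not a type. The border-associated-macrophage-like cluster passed 9 of the 10 markers of its own list and also all 12 microglia markers, whose summed level there in library 1 was 21575 CPM, against 4249 CPM for its own. With a finer clustering (resolution 1.0), or with the 10 genes and the pathway lists left out of the clustering, no cluster took this name, and clusters of 111 and 142 cells that passed 8 and 7 of its markers were named microglia-like. In all, 17 combinations of class and library held at least 20 cells, and levels are given for these.

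Levels are UMIs of a gene per 1000000 UMIs (CPM), summed over the cells of a class in a library. A UMI of this 3′ assay stands for 1 captured molecule and is not scaled by transcript length. Intervals are exact Poisson 95% intervals for CPM and exact Clopper-Pearson 95% intervals for shares of cells, and both cover counting error only. A gene is called higher or lower where its CPM differ at least 2-fold and the Poisson intervals do not overlap. The share of all genes with at least 50 UMIs that meet this rule is printed as the background. Counts out of the 10 genes may also hold genes below that minimum, which this share does not cover. The clusters were built from all genes, these 10 among them, so differences between clusters are descriptions.

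Nfkbid and Zfp36 both lie on chromosome 7 and Rel and Socs3 both on chromosome 11, and all 10 genes are protein coding in the annotation of GRCm38. RefSeq promoter windows of GRCm38.p6, 250 bases before to 50 bases after an annotated start, were found for 7 of the 10 genes, in 10 entries. Nfkbiz, Nfkb1 and Cd83 had no entry. The windows were searched on both strands for the NF-kB letters, which are GGG, 3 bases of any kind, T, 1 base of any kind and CC, and for the STAT letters TTCNNNGAA and the AP-1 letters TGANTCA, and the latter pair read the same on both strands. Of 32851 windows of this length, 17.4% held the NF-kB letters, 8.30% the STAT letters and 7.81% the AP-1 letters. Shown here are the windows of a pair of inhibitor genes whose level differed widely between microglia-like states (Nfkbia and Tnfaip3), of an inhibitor gene that was not called between them (Nfkbie) and of the SOCS gene. The Nfkbia window is at chr12:55492598-55492897 on the minus strand, the first of 2 Tnfaip3 windows at chr10:19015361-19015660 on the minus strand, the Nfkbie window at chr17:45555450-45555749 on the plus strand and the Socs3 window at chr11:117969317-117969616 on the minus strand. Capitals mark the NF-kB letters in Nfkbia, Tnfaip3 and Nfkbie and the STAT letters in Socs3.
Nfkbia: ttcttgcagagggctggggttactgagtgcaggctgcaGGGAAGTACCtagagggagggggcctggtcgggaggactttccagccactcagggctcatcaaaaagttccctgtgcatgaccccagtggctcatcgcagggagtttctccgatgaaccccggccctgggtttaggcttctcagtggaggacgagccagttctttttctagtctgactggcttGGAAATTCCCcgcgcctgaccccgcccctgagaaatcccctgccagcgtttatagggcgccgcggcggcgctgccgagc
Tnfaip3: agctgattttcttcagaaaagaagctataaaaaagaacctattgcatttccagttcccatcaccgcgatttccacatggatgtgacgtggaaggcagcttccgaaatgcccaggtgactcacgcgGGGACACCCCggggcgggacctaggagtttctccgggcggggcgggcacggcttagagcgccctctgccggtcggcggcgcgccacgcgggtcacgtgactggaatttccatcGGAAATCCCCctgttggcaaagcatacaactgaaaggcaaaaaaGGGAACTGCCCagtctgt
Nfkbie: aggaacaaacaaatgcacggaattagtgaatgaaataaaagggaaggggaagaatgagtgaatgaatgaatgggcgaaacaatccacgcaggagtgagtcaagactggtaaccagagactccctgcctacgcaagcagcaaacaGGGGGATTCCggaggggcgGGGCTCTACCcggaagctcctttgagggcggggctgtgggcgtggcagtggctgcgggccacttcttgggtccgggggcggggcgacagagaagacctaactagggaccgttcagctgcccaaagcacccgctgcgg
Socs3: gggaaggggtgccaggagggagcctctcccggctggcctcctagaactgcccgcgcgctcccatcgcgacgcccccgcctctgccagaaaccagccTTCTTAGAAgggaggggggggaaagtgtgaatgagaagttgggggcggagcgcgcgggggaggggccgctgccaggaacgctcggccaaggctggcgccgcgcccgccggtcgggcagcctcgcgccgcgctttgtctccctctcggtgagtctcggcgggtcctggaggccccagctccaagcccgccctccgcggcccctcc
The Nfkbia window held 2 matches, GGGAAGTACC and GGAAATTCCC, and the Nfkbie window also held 2, GGGGGATTCC and GGGCTCTACC. The Tnfaip3 window held 4, of which GGGAACTGCC and GGAACTGCCC overlap. The letters were present in genes called higher in the high microglia-like state of library 1. They were also present in Nfkbie, which was not called there, at a log2 ratio of 0.38 (-0.25 to 0.99). Rel held 2 overlapping matches and the second of 3 Nfkbid windows held 2, and the second Tnfaip3 window held GGGTTATTCC. The Zfp36 and Socs3 windows held the STAT letters once each, TTCTGCGAA and TTCTTAGAA, and no NF-kB letters. The other two Nfkbid windows also held the STAT letters, TTCCAGGAA and TTCAGAGAA. The AP-1 letters were in the first Tnfaip3 window, as TGACTCA, and in the Nfkbie window, as TGAGTCA. A match describes letters in a window and was not taken as a binding site.

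Across classes the 10 genes divided into abundant and scarce ones. Nfkbia had the highest CPM of the 10 in each of the 17 combinations. Summed over the 10 genes, the level was highest in microglia-like cells of library 2, with 5477 CPM (5217 to 5746), while those of library 1 had 3995 CPM (3939 to 4052). Cd209a dendritic-like cells had 4979, 4569 and 4103 CPM in libraries 1, 2 and 3. It was 4166 CPM in mature-dendritic-like cells of library 2 and 2878 CPM in border-associated-macrophage-like cells of library 1. NK-like cells, the one lymphoid class, were lowest, with 631 CPM (538 to 735) for library 2 and 542 CPM (414 to 698) for library 3.

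**Figure D1:**
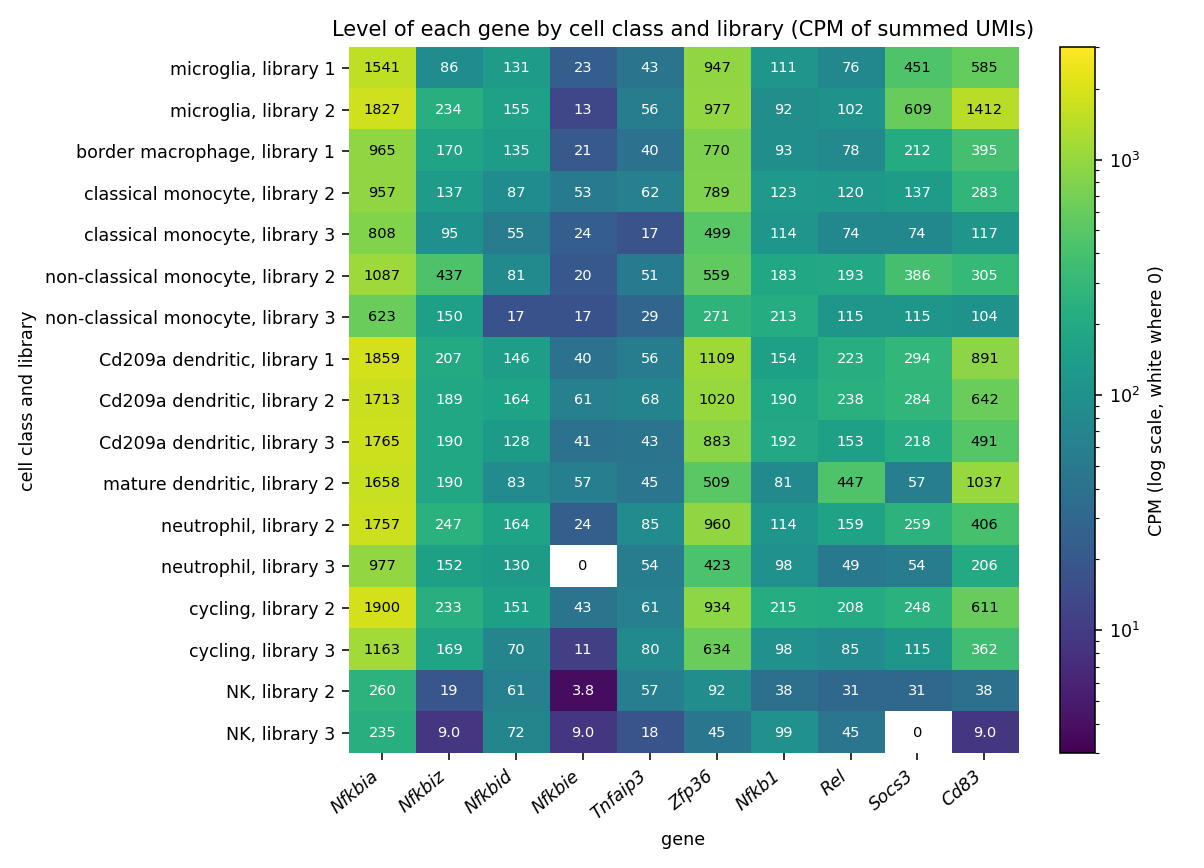
Level of each of the 10 genes in each class and library with at least 20 cells, as CPM of summed UMIs on a log colour scale, with white where no UMI was counted. Nfkbia is the most abundant of the 10 in every class shown, NK-like cells are low for most genes, and Rel is highest in mature-dendritic-like cells at 447 CPM.

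Nfkbia encodes IkB-alpha, the inhibitor that NF-kB itself induces and that carries it back out of the nucleus (ENSMUSG00000021025, chr12:55489410-55492647, minus strand). Its level ran from 235 CPM in NK-like cells of library 3 through a median of 1163 CPM to 1899.8 CPM in the cycling cluster of library 2. The next value, 1859 CPM in Cd209a dendritic-like cells of library 1, had an overlapping interval. The extremes were 8.08-fold apart.

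Nfkbie encodes IkB-epsilon, another cytoplasmic inhibitor (ENSMUSG00000023947, chr17:45555703-45563169, plus strand), and was the scarcest of the 10 over all cells. It had 0 UMIs in neutrophil-like cells of library 3, where 3 counts would give 16.3 CPM. Its median was 23.5 CPM and its highest level 60.9 CPM, in Cd209a dendritic-like cells of library 2, where the interval overlapped that of mature-dendritic-like cells of library 2 at 57.1 CPM.

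Nfkbiz encodes IkB-zeta, a nuclear IkB protein that helps NF-kB at a subset of its targets (ENSMUSG00000035356, chr16:55811375-55838899, minus strand). Its highest level was 437 CPM in non-classical monocyte-like cells of library 2, beyond the interval of the next, 247 CPM in neutrophil-like cells of library 2. That highest level came from 43 UMIs in 10 of 32 cells. The median was 169.8 CPM, and NK-like cells had 19.1 CPM in library 2 and 9.04 CPM, a single UMI, in library 3. Nfkbid encodes IkB-NS, another nuclear IkB protein (ENSMUSG00000036931, chr7:30421732-30428746, plus strand). It ran from 17.3 CPM in non-classical monocyte-like cells of library 3 through a median of 128 CPM to 164 CPM in neutrophil-like cells of library 2, which overlapped the next. That class was mixed at a finer clustering, as described with the comparison of libraries 2 and 3, and without the mixed cells it had 129 CPM of Nfkbid.

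Tnfaip3 encodes A20, an enzyme that edits ubiquitin chains and shuts off signalling upstream of the IkB kinase (ENSMUSG00000019850, chr10:19000910-19015657, minus strand). It was scarce in every class, from 17.4 CPM in classical monocyte-like cells of library 3 through a median of 54.3 CPM to 84.6 CPM in neutrophil-like cells of library 2, which overlapped the next. Without the mixed cells that class had 38.8 CPM of Tnfaip3, while the mixed cells had 113 CPM. In NK-like cells of library 2, where most of the 10 genes were low, Tnfaip3 stood at 57.3 CPM (32.1 to 94.6), from 15 UMIs. In microglia-like cells of that library it stood at 55.95 CPM (32.6 to 89.6). NK-like cells of library 3 had 18.1 CPM (2.19 to 65.3) of Tnfaip3, from 2 UMIs.

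Zfp36 encodes tristetraprolin, a protein that binds AU-rich stretches of cytokine messages and speeds their decay (ENSMUSG00000044786, chr7:28376784-28380253, minus strand). It overlaps Gm44710 on the other strand. The sources used here do not state how strand was used in counting, and whether reads of Gm44710 enter the count of Zfp36 was not tested. Its level ran from 45.2 CPM in NK-like cells of library 3 through a median of 769.8 CPM to 1109 CPM in Cd209a dendritic-like cells of library 1, which overlapped the same class in library 2 at 1020.0 CPM. The Cd209a dendritic-like cells of library 1 also had 5013 CPM of summed microglia markers, whose part was not tested.

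Nfkb1 encodes the precursor of the p50 subunit (ENSMUSG00000028163, chr3:135584655-135691547, minus strand), and overlaps Gm43430 on the same strand, so its count is uncertain. It ran from 38.2 CPM in NK-like cells of library 2 through a median of 114 CPM to 215 CPM in the cycling cluster of library 2, which overlapped the next. Rel encodes c-Rel, the subunit best known from lymphoid and dendritic cells (ENSMUSG00000020275, chr11:23736847-23770970, minus strand). Mature-dendritic-like cells of library 2 had the most, 447 CPM, beyond the interval of Cd209a dendritic-like cells of library 2 at 238 CPM. The median for Rel was 115 CPM and the lowest value 30.6 CPM, in NK-like cells of library 2.

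Socs3 encodes the inhibitor that docks on the receptors of interleukin 6 and related cytokines (ENSMUSG00000053113, chr11:117966079-117970047, minus strand). Microglia-like cells had the 2 highest levels, 609 CPM (524 to 703) for library 2 and 451 CPM (432 to 470.1) for library 1, and these intervals did not overlap. The median was 212 CPM. In NK-like cells it stood at 30.6 CPM for library 2 and had no UMI in library 3, where 3 counts would give 27.1 CPM.

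Cd83 encodes a surface protein of activated dendritic cells and B cells and is an NF-kB target (ENSMUSG00000015396, chr13:43784775-43803132, plus strand). Its highest level was 1412 CPM (1281 to 1552) in microglia-like cells of library 2, beyond the interval of mature-dendritic-like cells of library 2 at 1037 CPM. Microglia-like cells of library 1 had 585 CPM (564 to 607), the median was 395 CPM, and NK-like cells had 38.2 and 9.04 CPM in libraries 2 and 3.

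Over the 17 combinations, the genes closest in pattern to each of the 10 were found by Pearson's r of log2(CPM + 1) among 5985 genes. The points share libraries, depth and cells, so r is a description and has no p. The closest were, with r in parentheses, Slamf9 (0.95) and Tlr2 (0.95) for Zfp36, Gm17056 (0.94) and Tnfrsf12a (0.93) for Nfkbia, Gm17056 (0.93) and Mt1 (0.92) for Cd83, and Picalm (0.93) and Ralb (0.93) for Socs3. For the nuclear and cytoplasmic IkB genes they were Il13ra1 (0.91) and Csf2ra (0.91) for Nfkbiz, Junb (0.85) and Fosb (0.84) for Nfkbid, and Mbtd1 (0.92) and Ensa (0.83) for Nfkbie. For the subunits they were Fam69a (0.85) and Gm2a (0.80) for Nfkb1 and Nostrin (0.84) and Grasp (0.84) for Rel. Tnfaip3 had the lowest best match, Tnfsf9 (0.67), followed by Pknox1 (0.65). Among the 10 genes themselves, r was 0.95 between Nfkbia and Cd83, 0.94 between Nfkbia and Zfp36 and -0.02 between Tnfaip3 and Nfkb1.

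The microglia-like class itself held wide differences. It was made of 3 clusters, called the low, middle and high states here by the summed CPM of Atf3, a stress-induced transcription factor, and the cytokine Tnf, neither of which is among the 10. They held 608, 314 and 161 cells in library 1 and 36, 5 and 23 cells in library 2. The summed level of the 10 genes in library 1 was 1373 CPM (1322 to 1424) in the low, 3804 CPM (3713 to 3897) in the middle and 9086 CPM (8910.2 to 9265) in the high state. In library 2 it was 1448 CPM (1239 to 1681) in the low and 8639 CPM (8198 to 9098) in the high state.

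In library 1, Nfkbia had 313, 1455 and 3918 CPM in the low, middle and high states. Zfp36 had 467, 1042 and 1674 CPM, and Cd83 122, 408 and 1704 CPM. For these abundant genes each state stood above the interval of the one before it. The same held for Socs3, with 219.8, 523 and 762 CPM. It also held for Rel, with 48.96, 72.7 and 132 CPM. The nuclear IkB genes were scarce in the low state. Nfkbiz had 8.32 CPM (4.85 to 13.3) there, and 54.2 and 279 CPM in the middle and high states. Nfkbid had 39.2, 101 and 346 CPM. Tnfaip3 stood apart in the high state, with 16.6 and 28.3 CPM in the low and middle states, whose intervals overlapped, and 115 CPM (96.4 to 137) in the high state. Nfkb1 had 115, 97.4 and 126 CPM and Nfkbie 22.5, 21.3 and 28.6 CPM, with no such order and with overlapping intervals between the low and high states.

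**Figure D2:**
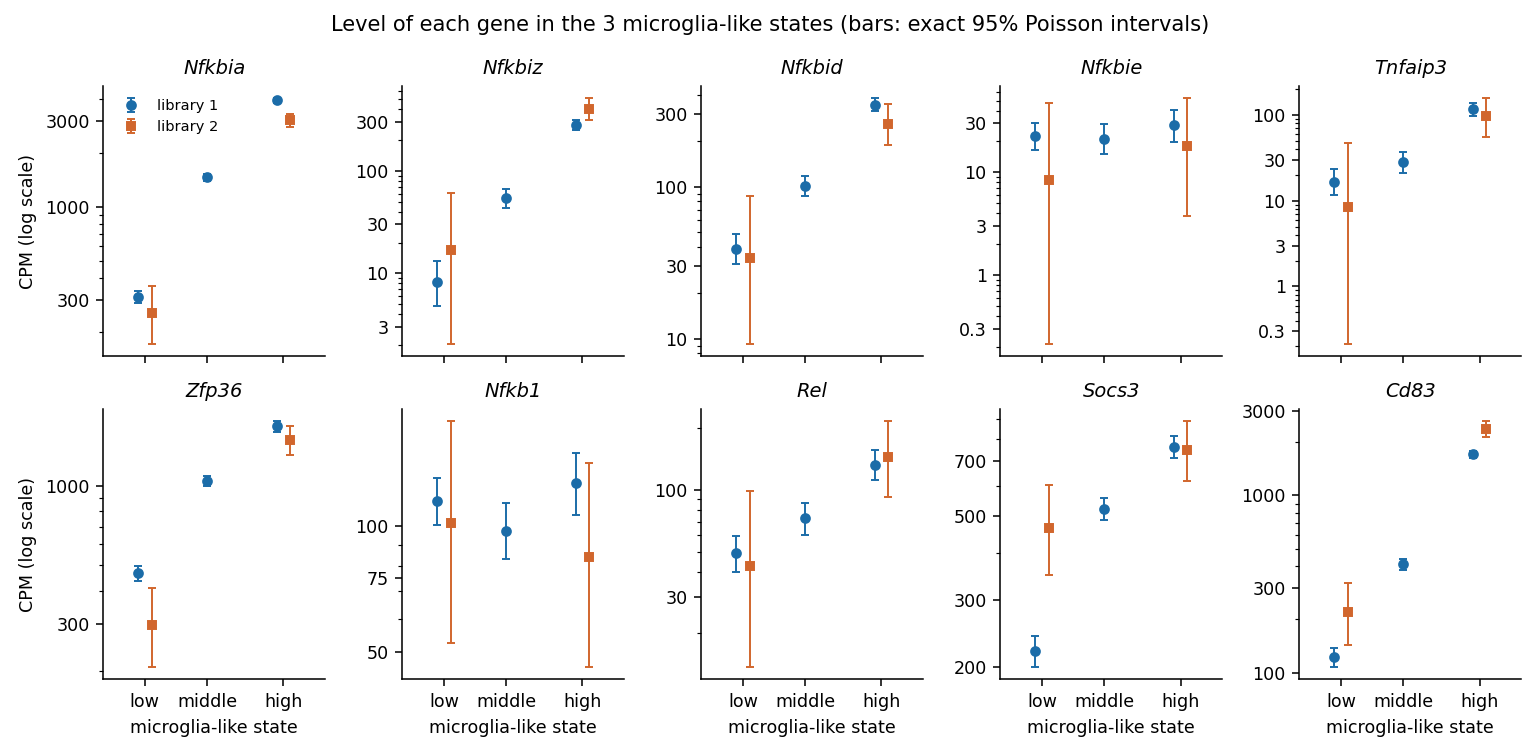
CPM of each of the 10 genes (log scale) in the low, middle and high microglia-like states of library 1 and in the low and high states of library 2, with exact Poisson 95% intervals as bars. In library 1, 8 of the 10 genes are at least 2-fold higher in the high state than in the other microglia-like cells, and Nfkbie and Nfkb1 are not.

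Against all other microglia-like cells of library 1, 8 of the 10 genes were called higher in the high state, at a background of 1.61% of 7100 genes, and 0 lower, at a background of 0.507%. The log2 ratio was 3.25 (2.93 to 3.57) for Nfkbiz, 2.75 (2.64 to 2.86) for Cd83 and 2.39 (1.98 to 2.81) for Tnfaip3. It was 2.36 (2.13 to 2.59) for Nfkbid, 2.23 (2.16 to 2.29) for Nfkbia and 1.20 (1.11 to 1.28) for Zfp36. Rel, at 1.15 (0.84 to 1.45), and Socs3, at 1.08 (0.96 to 1.21), were the smallest of those called. Nfkbie, at 0.38 (-0.25 to 0.99), and Nfkb1, at 0.24 (-0.05 to 0.52), were not called. The median log2 ratio was 1.71 over the 10 genes and -0.10 over all genes tested. Between the middle and low states, 6 genes were called higher, at a background of 1.06%, and 0 lower, at a background of 0.187%. Between the high and low states the same number as above, 8, were called higher, at a background of 2.18%, and 0 lower, at a background of 0.627%, with Nfkbiz 33.5-fold and Cd83 13.9-fold higher. When the 10 genes and the pathway lists were left out of the clustering, the high cluster was broader, with 491 cells of library 1 that held 146 of the 161, and 5 genes were called higher, namely Nfkbia, Tnfaip3, Zfp36, Socs3 and Cd83, at a background of 0.579%.

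Immediate early and dissociation genes moved with this gradient. Their summed level over 17 genes was 6642, 12176 and 21441 CPM in the low, middle and high states of library 1, and 12 of the 17 were called higher in the high state than in the other microglia-like cells. Nr4a1 stood at 457 against 67.2 CPM and Egr1 at 575 against 102 CPM, while the heat shock genes Hspa1a (1248 against 963 CPM) and Hspa1b (71.6 against 61.95 CPM) were not called. Atf3, counted among the 12, stood at 1486 against 251 CPM. It served to order the clusters, so its rise in the high state was fixed by that choice. Median depth was 2841, 4681 and 5985 UMIs per cell, and the median mitochondrial share was 1.05%, 1.20% and 1.23%. The summed microglia markers were 44561, 38403 and 31207 CPM, with 0 of 12 called in either direction. The part of these in the gradient was not tested.

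Most other components of the NF-kB pathway were not called between the high state and the other microglia-like cells of library 1. A gene that was not called may still differ, by less than 2-fold or with too few UMIs for a call. Of the other subunits, Nfkb2 (13.4 against 9.53 CPM), Relb (57.3 against 42.9 CPM) and Rela (80.5 against 61.95 CPM), 0 of 3 were called. Of the IkB kinase and upstream adaptor genes 0 of 13 were called, from Traf2, an adaptor of tumour necrosis factor receptors, at 34.9 against 23.6 CPM to the kinase subunit Ikbkb at 55.5 against 70.7 CPM. Of the JAK-STAT genes 0 of 12 were called, with the largest ratio for Stat3 at 84.1 against 51.6 CPM. Of the other SOCS genes also 0 of 5 were called, from Socs7 at 13.4 against 7.41 CPM to Socs2 at 4.47 against 8.21 CPM.

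Other feedback genes were called higher in 2 of 13 cases. Dusp1, a phosphatase that switches off MAP kinases and is also on the immediate early list, stood at 587 against 174 CPM, and Tnfaip2 at 53.7 against 19.1 CPM. Of 4 other mRNA decay genes 1 was called, Zc3h12a, which encodes the nuclease Regnase-1, at 63.5 against 17.7 CPM. NF-kB target cytokine and survival genes were called higher in 8 of 16 cases. Il1b stood at 336 against 21.4 CPM, Ccl2 at 298 against 43.4 CPM, and Tnf, which served to order the clusters, at 536 against 64.9 CPM. Sod2 (50.1 against 51.1 CPM) and Cxcl10 (45.6 against 47.4 CPM) were level.

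**Figure D3:**
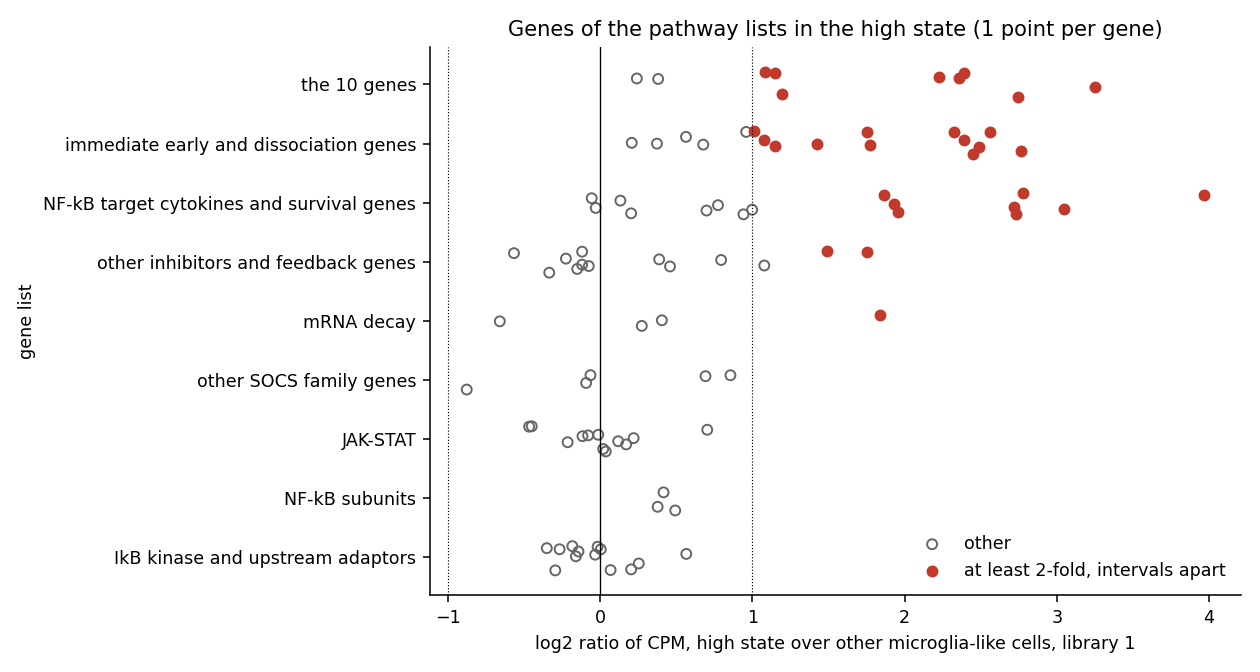
Log2 ratio of CPM in the high state over the other microglia-like cells of library 1, 1 point per gene with at least 20 UMIs, by gene list, with red for genes at least 2-fold apart whose intervals do not overlap. Red points lie among the 10 genes (8), the immediate early genes (12), the target cytokines (8), the other feedback genes (2) and the mRNA decay genes (1), and Dusp1 is drawn in both lists that hold it. Atf3 and Tnf, by which the clusters were ordered, are among the red points.

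In the high state several of the 10 genes were often detected in the same cell. Whether this goes beyond what the detection rates of the single genes would give was not tested. Each cell was thinned to 2000 UMIs so that depth was equal, which left 550 low, 306 middle and 159 high cells of library 1. A median of 2 of the 10 genes had a UMI in a low cell, 3 in a middle cell and 5 in a high cell. At least 5 genes were seen in 2 of 550 low cells (0.364%), 47 of 306 middle cells (15.4%) and 94 of 159 high cells (59.1%). In library 2 at least 5 genes were seen in 0 of 31 low cells, where the limit of 3 counts is a share of 9.68% and the exact upper bound 11.2%, and in 16 of 23 high cells (69.6%). NK-like cells had a median of 1 gene per thinned cell in libraries 2 and 3.

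**Figure D4:**
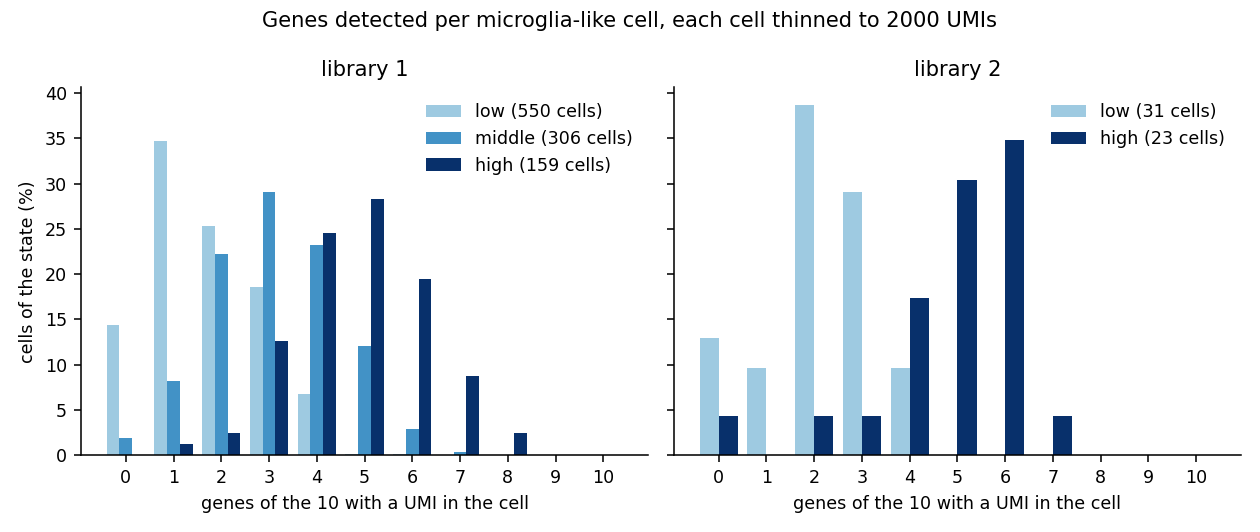
Share of microglia-like cells (%) by how many of the 10 genes had a UMI, each cell thinned to 2000 UMIs, for the low, middle and high states of library 1 and the low and high states of library 2. The median is 2 genes in the low and 5 genes in the high state of both libraries.

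Detection of single genes at equal depth followed the same order in library 1. Nfkbia had a UMI in 34.9% (30.9 to 39.1) of low, 77.5% (72.4 to 82.01) of middle and 97.5% (93.7 to 99.3) of high cells. Cd83 had a UMI in 110 of 550 low cells (interval 16.7% to 23.6%), 43.8% (38.2 to 49.6) of middle and 84.9% (78.4 to 90.1) of high cells. NK-like cells of library 2, thinned alike, served as a class in which most of these genes were low, and there the shares were 31.3% (20.6 to 43.8) for Nfkbia and 5.97% (1.65 to 14.6) for Cd83. The Nfkbia share of the low state overlapped that of NK-like cells, and the Cd83 share lay above it. Before thinning, Nfkbia had a UMI in 44.9%, 90.8% and 100% of low, middle and high cells and in 41.8% of these NK-like cells, at median depths of 2841, 4681, 5985 and 3092 UMIs. Nfkbiz was seen in 1.82% (0.875 to 3.32) of thinned low and 33.96% (26.6 to 41.9) of thinned high cells, and in 2.99% (0.364 to 10.4) of NK-like cells.

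The spread over single microglia-like cells of library 1 differed among the 10 genes. The Fano factor, the variance over the mean of thinned counts, was 7.56 for Nfkbia, 3.87 for Cd83, 2.64 for Socs3 and 2.54 for Zfp36, and its median over 4609 genes was 1.02. It was 2.06 for Nfkbiz, 1.74 for Nfkbid, 1.19 for Rel and 1.10 for Tnfaip3. Nfkb1 alone lay below the median, at 0.971, and Nfkbie was too scarce for a value. Of 1015 thinned cells, the 101 with the most Nfkbia held 52.3% of its UMIs, and the 101 with the most Zfp36 held 37.99% of that gene's.

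Microglia-like cells of library 2 had the same direction between states in the abundant genes. Nfkbia stood at 3028 against 254 CPM in the high and low states, Cd83 at 2372 against 220.1 CPM and Zfp36 at 1487 against 296 CPM. Nfkbiz stood at 403 against 16.9 CPM, with 2 UMIs in the low state and a log2 ratio of 4.57 (2.67 to 7.65). These 4 were called higher among the 5 genes with at least 50 UMIs, at a background of 7.85%, and 0 of the 10 were called lower, at a background of 2.47%. Socs3, the fifth, was not called, at 747 CPM (621 to 890.1) and 466 CPM (351 to 606). Under that minimum, Nfkbid (259 against 33.9 CPM) and Tnfaip3, with 1 UMI in the low state and a log2 ratio of 3.51 (0.82 to 8.90), also met the rule. The immediate early genes summed to 14738 and 4757 CPM in the high and low states, and 5 of 11 microglia markers were called lower in the high state; the part of these was not tested.

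Between libraries, Nfkbiz and Cd83 were higher in microglia-like cells of library 2 than of library 1. Nfkbiz stood at 234 CPM (183 to 295) against 86.4 CPM (78.4 to 95.1), a log2 ratio of 1.43 (1.05 to 1.80). Cd83 had a log2 ratio of 1.27 (1.12 to 1.42). These 2 of 10 were called higher, at a background of 1.69%, and 0 were called lower, at a background of 6.17%. Nfkbia (1827 against 1541 CPM), Zfp36 (977 against 947 CPM) and Socs3 (609 against 451 CPM) differed by less than 2-fold.

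The states were not equally filled in these libraries, with 23 of 64 microglia-like cells in the high state in library 2 and 161 of 1083 in library 1. Between the high states 0 genes were called higher, at a background of 2.33%, and 0 lower, at a background of 7.39%, with Nfkbiz at 403 against 279 CPM and Cd83 at 2372 against 1704 CPM. Between the low states 1 gene was called higher, at a background of 1.04%, and 0 lower, at a background of 3.61%. This was Socs3, at 466 CPM (351 to 606) against 219.8 CPM (199.9 to 241). At equal depth Socs3 was seen in 45.2% (27.3 to 63.97) of 31 low cells of library 2 and 27.5% (23.8 to 31.4) of 550 of library 1, and these intervals overlap. The summed microglia markers were 21544 CPM in library 2 and 39330.2 CPM in library 1, the neutrophil markers 875 and 210.4 CPM, and the median mitochondrial share 1.95% and 1.13%. The part of these in the difference was not tested.

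Border-associated-macrophage-like cells of library 1 differed from microglia-like cells of that library in Socs3. It stood at 212 against 451 CPM, a log2 ratio of -1.09 (-1.32 to -0.87), and was the 1 gene of the 10 called lower, at a background of 1.38%. Nfkbiz was 1.96-fold higher, at 169.8 against 86.4 CPM, just under the rule, and 0 genes were called higher, at a background of 3.33%. With each cell thinned to 2000 UMIs, Socs3 was not called, at a log2 ratio of -0.96 (-1.47 to -0.48), and Nfkbiz was, at 1.75 (1.18 to 2.28). Nfkbia stood at 965 against 1541 CPM. The immediate early genes summed to 15150.0 against 11982 CPM.

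Mature-dendritic-like cells of library 2, marked by Ccr7 and Fscn1, had levels of Nfkbia, Nfkbiz and Nfkbie with intervals that overlapped those of Cd209a dendritic-like cells of that library. Nfkbia stood at 1658 against 1713 CPM, Nfkbiz at 190.3 against 189 CPM and Nfkbie at 57.1 against 60.9 CPM. The fourth IkB gene, Nfkbid, stood at 83.3 against 164 CPM, a log2 ratio of -0.98 (-1.53 to -0.46), just under the rule. Socs3 was called lower, at 57.1 against 284 CPM and a log2 ratio of -2.31 (-2.97 to -1.72). Nfkb1 was also called lower, at 80.9 against 190.1 CPM, as was Zfp36, at 509 against 1020.0 CPM and close to the 2-fold limit. These 3 of 10 stand beside a background of 15.9%. Rel (447 against 238 CPM) and Cd83 (1037 against 642 CPM) were under 2-fold, and 0 genes were called higher, at a background of 9.78%.

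Other pathway genes were further apart between these dendritic-like classes. Relb, the subunit of the alternative NF-kB pathway, stood at 588 against 40.8 CPM and Nfkb2, its usual partner, at 188 against 28.2 CPM, so 2 of 3 other subunits were called higher, and Rela (78.5 against 43.9 CPM) was not. Of 4 other SOCS genes 2 were called higher, Socs2 at 714 against 7.53 CPM and Socs1 at 40.4 against 5.65 CPM, opposite in direction to Socs3. Birc2, a ubiquitin ligase of the pathway, stood at 438 against 42.7 CPM, and Tnip3, which encodes a partner of A20, at 133 against 639.9 CPM. The immediate early genes summed to 7836 against 12551 CPM, with 10 of 17 called lower and 1 higher, and their part was not tested. Between libraries 2 and 1, Cd209a dendritic-like cells had 0 of the 10 genes called higher (background 1.39%) or lower (background 3.71%), with Cd83 at 642 against 891 CPM. The summed microglia markers of this class were 822 CPM in library 2 and 5013 CPM in library 1, and their part was not tested.

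Non-classical monocyte-like cells of library 2 stood above classical ones in 2 of the 10 genes, at a background of 6.13%, and below them in 0, at a background of 11.5%. Nfkbiz was at 437 against 137 CPM, a log2 ratio of 1.67 (1.05 to 2.29), and Socs3 at 386 against 137 CPM, a log2 ratio of 1.49 (0.84 to 2.13). In library 3 Nfkbiz stood at 150.0 against 95.05 CPM and Socs3 at 115 against 74.5 CPM, and 0 genes were called higher, at a background of 6.64%, or lower, at a background of 7.24%. The leading genes of the non-classical cluster included the endothelial markers Cldn5 and Ly6c1. At a finer clustering, which set 12 cells led by Cldn5 apart, the 23 non-classical cells of library 2 had 583 CPM of Nfkbiz and 278 CPM of Socs3. Against the classical cells of that clustering Nfkbiz was called, at a log2 ratio of 2.27 (1.68 to 2.85), and Socs3 was not, at 0.87 (0.09 to 1.59). Socs3 was not called with the lists left out of clustering either, at 0.95 (0.21 to 1.63), and after thinning Nfkbiz was not, at 0.97 (-0.04 to 1.98).

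Libraries 2 and 3 shared 6 classes with at least 20 cells in each, and the summed level of the 10 genes was lower in library 3 in all 6. It was 2748 and 1879 CPM in classical monocyte-like, 3302 and 1656 CPM in non-classical monocyte-like and 4569 and 4103 CPM in Cd209a dendritic-like cells of libraries 2 and 3. It was 4173 and 2143 CPM in neutrophil-like cells, 4604 and 2788 CPM in the cycling cluster and 631 and 542 CPM in NK-like cells. The intervals overlapped in NK-like cells and not in the other 5 classes. The summed immediate early genes were lower in library 3 in the same 6 classes, from 13115 and 5181 CPM in non-classical monocyte-like cells to 12551 and 8956 CPM in Cd209a dendritic-like cells, and their part was not tested.

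The genes called lower in library 3 were not the same in each class. In the cycling cluster 5 of 10 were called lower, at a background of 5.24%. These were Rel (84.9 against 208 CPM), Nfkb1 (97.97 against 215 CPM), Nfkbid (69.98 against 151 CPM), Socs3 (115 against 248 CPM) and, with fewer than 50 UMIs, Nfkbie (11.2 against 43.1 CPM). The cycling cells of library 3 also had more microglia markers, at 5099 against 905 CPM, so a different mix of cells and a different level per cell cannot be told apart here. In non-classical monocyte-like cells 4 were called lower, at a background of 5.88%. These were Nfkbiz (150.0 against 437 CPM), Socs3 (115 against 386 CPM), Zfp36 (271 against 559 CPM) and, with fewer than 50 UMIs, Cd83 (104 against 305 CPM). At equal depth Zfp36 was seen in 48.8% of library 3 and 37.0% of library 2 cells, and Cd83 in 26.8% and 18.5%. These shares were higher in library 3. Nfkbiz was seen in 22.0% and 25.9%, and Socs3 in 14.6% and 25.9%. The intervals of these shares overlapped for each of the 4 genes, and 60% of the Socs3 UMIs of library 3 came from 1 cell. At the finer clustering Socs3 was not called, at 115 against 278 CPM and a log2 ratio of -1.27 (-2.24 to -0.30). The summed endothelial markers of this class were 69.2 CPM in library 3 and 3332 CPM in library 2, and their part was not tested. In classical monocyte-like cells 2 were called lower, at a background of 3.63%, Cd83 (117 against 283 CPM) and, with fewer than 50 UMIs, Tnfaip3 (17.4 against 61.6 CPM). With each cell thinned to 2000 UMIs, 1 gene was called lower in each of these 3 classes, and with doublets kept 0 were called in classical monocyte-like cells. With at most 5% mitochondrial counts 4 were called in classical monocyte-like cells, Nfkbid and Socs3 joining, and 3 in the cycling cluster, Nfkb1, Rel and Socs3. The background was not computed under the thinning, doublet and mitochondrial settings, so these counts have no share over all genes beside them.

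In neutrophil-like cells 3 genes were called lower in library 3, at a background of 6.94%. These were Socs3 (54.3 against 259 CPM), Rel (48.8 against 159 CPM) and Zfp36 (423 against 959.7 CPM). With at most 5% mitochondrial counts, or with doublets kept, Nfkbia and Cd83 were called too, 5 in all. As a mean of per-cell CPM, or with the lists left out of clustering, Nfkbiz joined them, 6 in all. The background of this class was not computed under these settings. This class was mixed, since 63 of its 127 cells fell at a finer clustering into a cluster led by Jchain, S100a9, Cd209a and MHC class II genes. Without those cells, the 36 cells of library 2 had 32.4 CPM of Socs3, 58.2 CPM of Rel and 51.8 CPM of Cd83. The genes called lower were then Nfkbia (449 against 1165 CPM) and Zfp36 (85.99 against 330.0 CPM), at a background of 4.37%. These 2 alone of the 10 had at least 50 UMIs there. In Cd209a dendritic-like cells 0 genes were called lower, at a background of 1.95%, with Nfkbia at 1765 against 1713 CPM and Nfkbiz at 189.5 against 189 CPM. In NK-like cells 0 were called lower, at a background of 0.508%, where Nfkbia alone had at least 50 UMIs, at 235 against 259.9 CPM. In each of the 6 classes 0 of the 10 genes were called higher in library 3, where the background was 2.23% in classical and 4.22% in non-classical monocyte-like, 3.13% in Cd209a dendritic-like, 1.83% in neutrophil-like and 1.42% in NK-like cells and 11.6% in the cycling cluster.

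**Figure D5:**
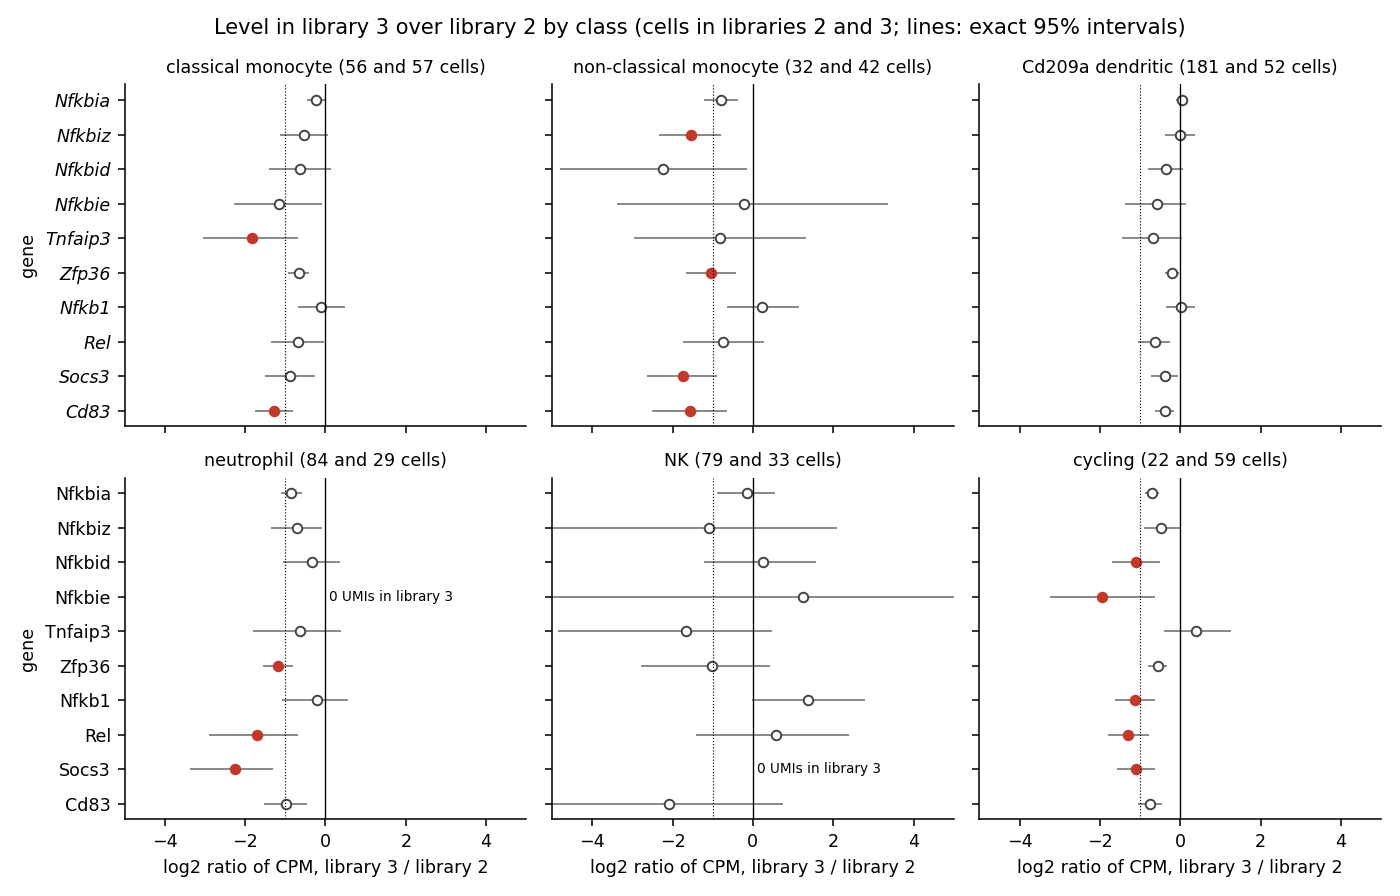
Log2 ratio of CPM in library 3 over library 2 for each of the 10 genes in the 6 classes that both libraries hold, with exact 95% intervals as lines cut at 5 on either side and red for genes at least 2-fold apart whose intervals do not overlap. Red points number 2 in classical and 4 in non-classical monocyte-like cells, 3 in neutrophil-like cells and 5 in the cycling cluster, and all lie below 0.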

How the data were processed

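Single-cell RNA was profiled in Cd11b-sorted mouse brain cells with 10x Genomics 3′ v2 reagents. The authors deposited whole-number counts of UMIs per gene and cell, in 1 matrix for all 3 libraries. Per the submitters' processing notes, Cell Ranger 2.0.1 and the build mm10 were used, and per the labels' protocols the mean depth was 45002 reads per cell. The matrix held 2149 cells, with 6410990, 4022293 and 2831118 UMIs in libraries 1, 2 and 3.

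Cells with at least 500 genes and at most 10% mitochondrial counts were kept, which removed 5. Scrublet (expected rate 5%) marked 7 more, or 0.326%, and these were removed; this is a low yield, and some of the 2137 cells used may be doublets. The 2000 most variable genes, scaled and capped at 10, gave 30 principal components, 15 neighbours and 14 Leiden clusters at resolution 0.5. A marker passed where at least 30% of a cluster's cells had a UMI and its CPM reached 2 times its median CPM among clusters. For a class name, at least 20 cells, 3 passed markers and a marker among the 10 leading genes were needed. The T cell markers Trac and Trbc2 and the B cell marker Ighm were not analysed here. The 3 microglia-like clusters were ordered by the CPM of Atf3 and Tnf.

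UMIs were summed per class and library, with 3 counts as the floor where none was seen. Genes needed 50 UMIs for the background, 20 UMIs in the pathway lists and 200 UMIs for likeness in pattern. The text names all 10 genes and, from each pathway list, genes among the 3 largest and 2 smallest ratios. The genes, lists and rules were chosen with earlier results of these data known, and the motif letters after the sequences had been seen. The gene-wise comparison was tested on simulated Poisson counts, which hold no spread between cells beyond counting error. Thinning was checked on cells of library 3, and the other steps were not tested in this way. Alternatives were a resolution of 1.0, at least 1000 genes, at most 5% mitochondrial counts, doublets kept, means of per-cell CPM, the 10 genes and pathway lists left out of clustering, thinning to 2000 UMIs and a 1.5-fold limit. Leaving out a mixed cluster was chosen after seeing the data. Tools were python 3.11.15, scanpy 1.11.5, anndata 0.12.19, numpy 2.4.6, scipy 1.17.1, igraph 0.11.9 and matplotlib 3.10.9.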

Additional observations from a re-analysis of the deposited data

Results flagged for a closer look

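Signal of the 10 genes was also present in cells that belong to no named class, which the comparisons do not use. In 7 cells led by Prss34 and Mcpt8, genes of basophils, Nfkbia stood at 8666 CPM, above every named class, with a UMI in all 7 cells and 30.8% of its UMIs in 1 cell. In 9 cells led by Ptn and Npy, Socs3 stood at 765.8 CPM, but 34 of its 36 UMIs came from 1 cell and 3 of the 9 cells had a UMI. In 12 cells led by Ttr and Enpp2, Zfp36 stood at 84.99 CPM, from 8 UMIs in 4 cells, 5 of them in 1 cell. Each was picked out because it exceeds the level that 3 counts would give in those cells. The cells were too few for a class name, and they come from more than 1 library each.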

How the results depend on the processing

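The summed level of the 10 genes in microglia-like cells moved beyond its interval under several settings. In library 1 it was 3995 CPM, and it was 3829 CPM at resolution 1.0 and also with the 10 genes and pathway lists left out of clustering, 4052 CPM with at least 1000 genes per cell, 3442 CPM as a mean of per-cell CPM and 3479.8 CPM after thinning. In library 2 it was 5477 CPM, and 5153, 4502, 4981 and 4724 CPM with at least 1000 genes, as a per-cell mean, with the lists left out and after thinning. The number of genes called higher in the high state was 8, and 5 with the lists left out of clustering. The number called lower in library 3 than in library 2 was 2 in classical monocyte-like cells, and 4 with at most 5% mitochondrial counts, 0 with doublets kept and 1 after thinning. It was 4 in non-classical monocyte-like and 0 in Cd209a dendritic-like cells, and 1 in each after thinning. It was 3 in neutrophil-like cells, 5 with at most 5% mitochondrial counts or doublets kept, and 6 as a per-cell mean or with the lists left out. It was 5 in the cycling cluster, 3 with at most 5% mitochondrial counts and 1 after thinning. The 1 gene lower in border-associated-macrophage-like cells was 0 after thinning. The 2 higher in non-classical than in classical monocyte-like cells of library 2 were 4 with doublets kept and 1 after thinning. Both were put under these settings after seeing the data. The clustering was run anew under the cell filters and the doublet setting, so class sizes changed too, and the cause of each change was not tested. A background was computed anew for the high state with the lists left out and for neutrophil-like cells without the mixed cells. The other counts under these settings have no background of their own. The 2 genes higher in microglia-like cells of library 2, the 3 lower in mature-dendritic-like cells and the lead of Nfkbia or Zfp36 stayed within 1.5 times their count under every setting that gave a value. In the comparisons put under these settings, no ratio of a gene called in the main setting turned its direction. Genes not called were not checked for direction, and ratios with a count of 0 were left out. No value was had for border-associated-macrophage-like cells at resolution 1.0 or with the lists left out, since no cluster took that name, nor for the cycling cluster with the lists left out or for neutrophil-like cells with at least 1000 genes. No paired analysis was possible because the libraries carry no group or replicate number and each group has 1 library, so no library could be left out within a group either. Depth limits the scarce genes, such as Nfkbie and Tnfaip3, in the classes with few cells.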
